A study of Mus musculus with 4 samples.

Results

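Polyamine genes were followed in the testis of Tslc1-/- mice: the ornithine decarboxylase antizymes Oaz3, Oaz1 and Oaz2, the synthesis enzymes Odc1, Amd1, Srm and Sms, and the catabolic enzyme Sat1. A gene was kept where the platform annotation gives a probe set that names it and no other gene. Of the 8 listed genes, 5 had such a probe set (Oaz3, Oaz2, Odc1, Srm and Sat1), out of 8251 genes measured in this way. Oaz1 and Sms were read only by 4 probe sets annotated jointly with a pseudogene, and these are described apart. No probe set used here is annotated to Amd1, which was not analysed here. The genes were brought together with the change of Oaz3 in these arrays already known, so differences between the genotypes are given for them as a description, without a test.

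RNA was taken from the testis of Tslc1-/- and Tslc1+/+ males of the C57BL/6J strain, 16 weeks old, with 2 arrays per genotype. Tslc1, now named Cadm1, encodes an adhesion molecule of the immunoglobulin superfamily. The labels give neither the design of the allele nor whether each array stands for its own animal or for a pool. A p-value here thus reflects spread from array to array alone, and that spread may be technical. For each probe set, limma pooled its own spread with that of probe sets of like signal. An SE or p-value can therefore differ widely from what the probe set's own arrays would give. The values are signals of the Affymetrix software, scaled by the authors to a common brightness on every array. They are compared between genotypes for the same probe set and not between probe sets, because probe sets differ in how bright they read. An exception, the median signal of elongating spermatid genes, is marked where it is used. Log2 differences are Tslc1-/- minus Tslc1+/+ means of log2(signal + 50), given with the standard error (SE) of the limma fit; the added 50 shrinks the differences of dim probe sets.

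Polyamines are small charged molecules that bind nucleic acids and are needed for cell growth and, in the testis, for the formation of sperm. Ornithine decarboxylase starts their synthesis, and antizymes bind that enzyme and block it. Oaz1 protein also hands it to the proteasome without ubiquitin. Making an antizyme needs a ribosomal frameshift that polyamines promote, which closes a feedback loop. Oaz1 and Oaz2 are made in many tissues, while Oaz3 is transcribed in haploid germ cells of the testis.

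The arrays were alike as a whole. Median signals ran from 361.5 to 378 over the 4 arrays, log2 signals correlated across probe sets with r = 0.941 within Tslc1-/- and 0.938 within Tslc1+/+, and with r from 0.930 to 0.941 between genotypes; probe sets are not independent replicates. The brightest Cadm1 probe sets checked the labels: 93606_s_at read 775.9 and 604.5 in Tslc1-/- against 3449.5 and 4027.9 in Tslc1+/+, and 93604_f_at read 443.5 and 444.9 in Tslc1-/- against 3960 and 3925.2 in Tslc1+/+. A probe set outside the deleted part, which the labels do not give, would check nothing.

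Of the antizyme probe sets, that of Oaz3 showed a wide gap between the genotypes. Its probe set, 160467_at, read 17229.1 and 18240.6 in Tslc1-/- testis, against 43917.6 and 46006.6 in Tslc1+/+ testis. The Tslc1-/- arrays lay far below the Tslc1+/+ arrays, and the arrays of a genotype lay close together. Oaz3 averaged 17735 ± 715 in Tslc1-/- testis, against 44962 ± 1477 in Tslc1+/+ testis (SD, n = 2). The log2 difference was -1.34 (SE 0.08), or 2.53-fold lower in Tslc1-/-. Among the 7975 probe sets with a mean signal of at least 200, 51 had a larger fall than Oaz3, and 8 of these 51 were called by limma. Whole testis was measured, so fewer cells that carry the transcript and less of it per cell cannot be told apart.

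Oaz2, the antizyme made in many tissues, read much the same in both genotypes. Its probe set, 101000_at, read 3453.4 and 3615.4 in Tslc1-/- testis, against 3068.1 and 3459 in Tslc1+/+ testis. The lower Tslc1-/- array lay just under the higher Tslc1+/+ array, so the genotypes overlapped. Oaz2 averaged 3534 ± 115 in Tslc1-/- testis, against 3264 ± 276 in Tslc1+/+ testis (SD, n = 2), a log2 difference of 0.12 (SE 0.13).

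Oaz1, the founding antizyme of the feedback loop, was read by 101013_at and 161360_at, both annotated to Oaz1 and its pseudogene Oaz1-ps. The brighter of them, 101013_at, read 13506.2 and 12591.3 in Tslc1-/- testis, against 14794.2 and 14007.3 in Tslc1+/+ testis. There the Tslc1-/- arrays were lower by a small margin without overlap, and the log2 difference was -0.14 (SE 0.09). The dimmer, 161360_at, read 240.8 and 504.5 in Tslc1-/-, against 461.1 and 698.4 in Tslc1+/+. Its genotypes overlapped, and its log2 difference was -0.62 (SE 0.40). Signal of the gene and of the pseudogene cannot be separated on these probe sets.

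**Figure D1:**
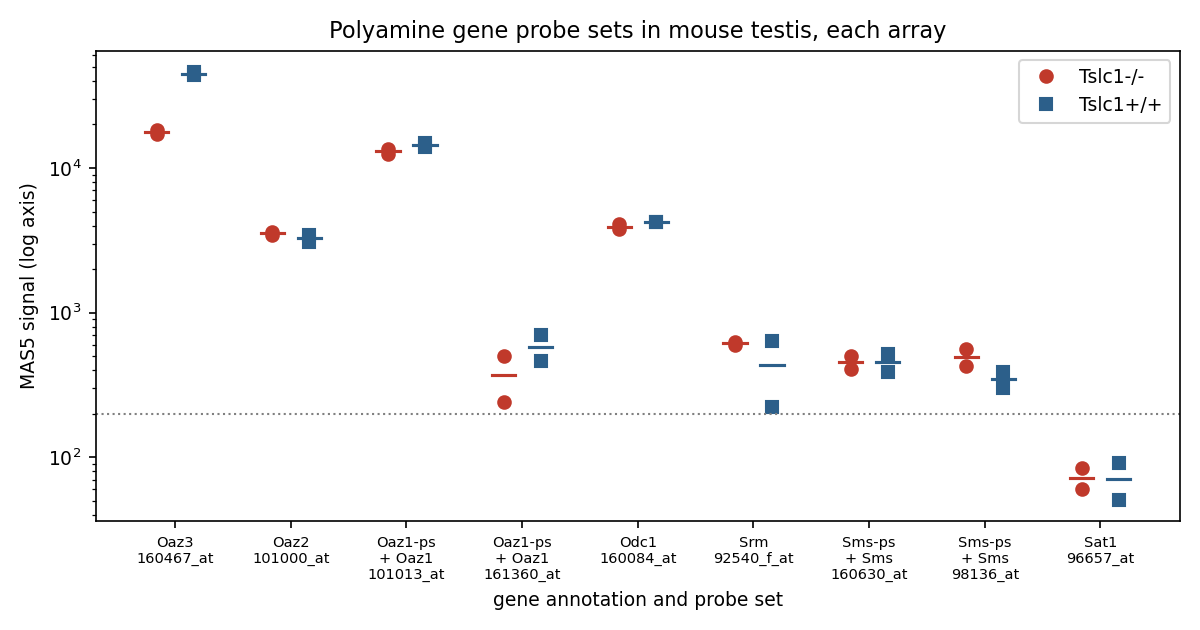
MAS5 signal on a log axis for each array, for the probe sets of Oaz3, Oaz2, Odc1, Srm and Sat1 and for the 4 probe sets shared with a pseudogene. Circles are Tslc1-/- arrays, squares are Tslc1+/+ arrays, short lines are the means of 2 arrays and the dotted line is a signal of 200. Only Oaz3 shows a wide gap between the genotypes, with 17229.1 and 18240.6 in Tslc1-/- against 43917.6 and 46006.6 in Tslc1+/+. Heights of different probe sets are not comparable.

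Of the synthesis enzymes, Odc1 differed little between the genotypes. It encodes ornithine decarboxylase, which makes putrescine and is the protein that antizymes bind. Its probe set, 160084_at, read 3781 and 4084.5 in Tslc1-/- testis, against 4254.1 and 4255.5 in Tslc1+/+ testis. The genotypes did not overlap, Tslc1-/- being lower, but the gap between the nearest arrays was smaller than that between the Tslc1-/- arrays. Odc1 averaged 3933 ± 215 in Tslc1-/- testis, against 4255 ± 0.990 in Tslc1+/+ testis (SD, n = 2), a log2 difference of -0.11 (SE 0.12).

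Srm encodes spermidine synthase, which turns putrescine into spermidine. Its probe set, 92540_f_at, read 600.5 and 627.2 in Tslc1-/- testis, against 641.4 and 224.1 in Tslc1+/+ testis. The Tslc1-/- signals lay between those of the Tslc1+/+ arrays, which themselves stood apart. The log2 difference of 0.61 (SE 0.43) rested on Tslc1+/+ replicate 2: it was -0.06 without that array and 1.28 without Tslc1+/+ replicate 1. The suffix of this probe set marks possible cross-hybridisation with related transcripts.

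Sms, spermine synthase, was read by 160630_at and 98136_at, both annotated to Sms and the pseudogene Sms-ps. The first read 502.1 and 410.7 in Tslc1-/- testis, against 514.7 and 390.5 in Tslc1+/+ testis (log2 difference 0.02, SE 0.34). The second read 562.2 and 429.6 in Tslc1-/- testis, against 302.2 and 389.2 in Tslc1+/+ testis. On this probe set the Tslc1-/- arrays were the higher without overlap (log2 difference 0.46, SE 0.36), while on 160630_at the genotypes overlapped.

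Sat1 encodes the acetyltransferase that marks spermidine and spermine for export or breakdown. Its probe set, 96657_at, read 60 and 84.6 in Tslc1-/- testis, against 50.8 and 91.6 in Tslc1+/+ testis. Here too the Tslc1-/- signals lay between those of the Tslc1+/+ arrays. Its mean signal of 71.8 was below the minimum of 200 set for testing, and a fit over all probe sets gave a log2 difference of 0.03 (SE 0.46). A change of Sat1 was not measurable with precision at this brightness.

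In the fit over all 7975 tested probe sets, limma called 86 at a Benjamini-Hochberg adjusted p under 0.05, which is 1.08%. It called 67 lower in Tslc1-/-, or 0.840%, and 19 higher, or 0.238%. Of the 4 tested genes Oaz3, Oaz2, Odc1 and Srm, 1 was called lower (Oaz3), none was called higher, and 3 were not called. Genotypes did not overlap for Oaz3 and Odc1, both lower, which was the case for 18.5% of all tested probe sets in that direction and for 40.0% in either direction. Since Oaz3 was picked for its fall in this same contrast, these counts describe the genes and support nothing further.

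Oaz3 was also set against each other gene inside the same array, which removes any difference in overall scaling. The log2 signal of Oaz3 minus that of Odc1, centred on its Tslc1+/+ mean, was -1.21 and -1.24 on the Tslc1-/- arrays, against -0.03 and 0.03 on the Tslc1+/+ arrays. The difference between the changes of Oaz3 and Odc1 was thus -1.23 on the log2 scale, with an SD of 0.04 within a genotype. For Oaz3 minus Oaz2 the values were -1.46 and -1.45 on the Tslc1-/- arrays, against 0.05 and -0.05 on the Tslc1+/+ arrays. The antizyme of haploid germ cells and the widely made antizyme therefore moved apart by -1.46 on the log2 scale, with an SD of 0.05 within a genotype. Against the probe set 101013_at shared by Oaz1 and Oaz1-ps the difference in change was -1.20, with an SD of 0.12. Against the dimmer 161360_at it was -0.72 with an SD of 0.49, from -0.29 and -1.14 on the Tslc1-/- arrays, against 0.24 and -0.24 on the Tslc1+/+ arrays. Against Sat1 it was -1.37, and against the probe sets shared by Sms and Sms-ps it was -1.36 and -1.80, with SDs of 0.24, 0.27 and 0.25. Against Srm it was -1.95 with an SD of 0.70, which carries the spread of the Tslc1+/+ arrays of Srm.

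The promoters of Oaz2 and Odc1 are printed as the antizyme and enzyme whose signals differed little, from RefSeq on build GRCm38.p6, plus strand. Promoter entries were matched by symbol for 3 of the 5 genes, Oaz2, Odc1 and Sat1, and not for Oaz3 and Srm. The windows end at the base before the annotated gene: chr9:65676298-65676547 for Oaz2 and chr12:17544623-17544807 for Odc1. Capitals mark the motif TGACG, the core of the cyclic AMP response element that CREB and CREM proteins bind, searched on both strands.
Oaz2: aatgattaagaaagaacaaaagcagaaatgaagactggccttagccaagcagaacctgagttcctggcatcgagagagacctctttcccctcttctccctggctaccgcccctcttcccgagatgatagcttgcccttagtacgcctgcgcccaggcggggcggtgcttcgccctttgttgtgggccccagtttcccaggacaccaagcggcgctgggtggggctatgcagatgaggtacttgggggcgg
Odc1: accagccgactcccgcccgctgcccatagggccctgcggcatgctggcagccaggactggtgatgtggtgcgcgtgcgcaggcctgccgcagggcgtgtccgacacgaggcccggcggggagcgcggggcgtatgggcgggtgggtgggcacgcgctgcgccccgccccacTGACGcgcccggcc
Odc1 held 1 match in its 185 bases, where 11.1% of 32851 promoter entries held one in the same stretch. Oaz2 held 0 in its 250 bases, where 17.8% of entries held one. The motif TATAA, the core of the TATA box, was also searched on both strands; no match of it overlaps one of the first. It had 0 matches in either window, where 22.8% of entries held it in 250 bases and 16.9% in 185 bases. A match describes the letters only.

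The other genes of polyamine metabolism were taken from a list of 36, of which 20 had a probe set with 1 gene and 13 passed the signal filter. None of the 13 was called in either direction (limma with Benjamini-Hochberg adjustment), where 1.08% of all tested probe sets were called, so a count of 0 says little about these genes. Of the 13, 3 had an unadjusted p under 0.05, as did 799 of all 7975 tested probe sets, and the median log2 change of the 13 was -0.02, against 0.02 over all tested probe sets. With a spread estimate that ignored signal, limma again called 0, with 1 at an unadjusted p under 0.05.

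Azin1, the antizyme inhibitor, resembles ornithine decarboxylase and frees it by binding antizymes in its place. It read 859.3 and 818.8 in Tslc1-/- testis, against 706.2 and 762.7 in Tslc1+/+ testis. Its Tslc1-/- signals were the higher without overlap, as on 21.5% of all tested probe sets, and the log2 difference was 0.18, SE 0.23 (adjusted p = 0.842 by limma). No probe set used here is annotated to Azin2.

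Among 6 tested genes that supply arginine, ornithine and methionine, 0 were called. Ahcy, which clears the S-adenosylhomocysteine left by methylation, had the smallest p: it read 1502.1 and 1736.3 in Tslc1-/- testis, against 1015.3 and 993.3 in Tslc1+/+ testis, and the log2 difference was 0.66 (adjusted p = 0.183 by limma). The other tested Ahcy probe sets had changes of 0.09 (SE 0.20) and 1.14 (SE 0.75), so they shared a sign but not a size. The genotypes overlapped on the first, so its sign says little. The second was dim, with 52.7 and 189.8 in Tslc1+/+. Asl, which makes arginine in the urea cycle, was singled out after its values were seen, as the third gene with an unadjusted p under 0.05 beside Ahcy and Slc3a2. It read 137.1 and 569.3 in Tslc1-/- testis, against 576.6 and 880.3 in Tslc1+/+ testis, giving -1.17 on the log2 scale (adjusted p = 0.483 by limma), and its dim second probe set had a change of 0.19. On their brightest probe sets, Gatm, Oat, Ass1 and Mat2b had changes between -0.21 and 0.05, and a dimmer tested probe set of Mat2b was at -0.65 with overlap.

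Polyamine transport and hypusination gave 0 calls among 4 and 2 tested genes. Slc3a2, the heavy chain of amino acid transporters, linked in human cells to polyamine export, read 6931.5 and 6010.2 in Tslc1-/- testis, against 5353 and 5114.7 in Tslc1+/+ testis. The genotypes did not overlap, and the log2 difference was 0.30, SE 0.12 (adjusted p = 0.403 by limma). Dohh, the hydroxylase that completes the spermidine-derived residue hypusine, read 706.8 and 1144.2 in Tslc1-/-, against 1015.2 and 1167.1 in Tslc1+/+, and overlapped (log2 difference -0.26, adjusted p = 0.792 by limma). The oxidases that return spermine and spermidine to shorter polyamines, and the listed protein partners of Oaz3, had no probe set with 1 gene among those used here.

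**Figure D2:**
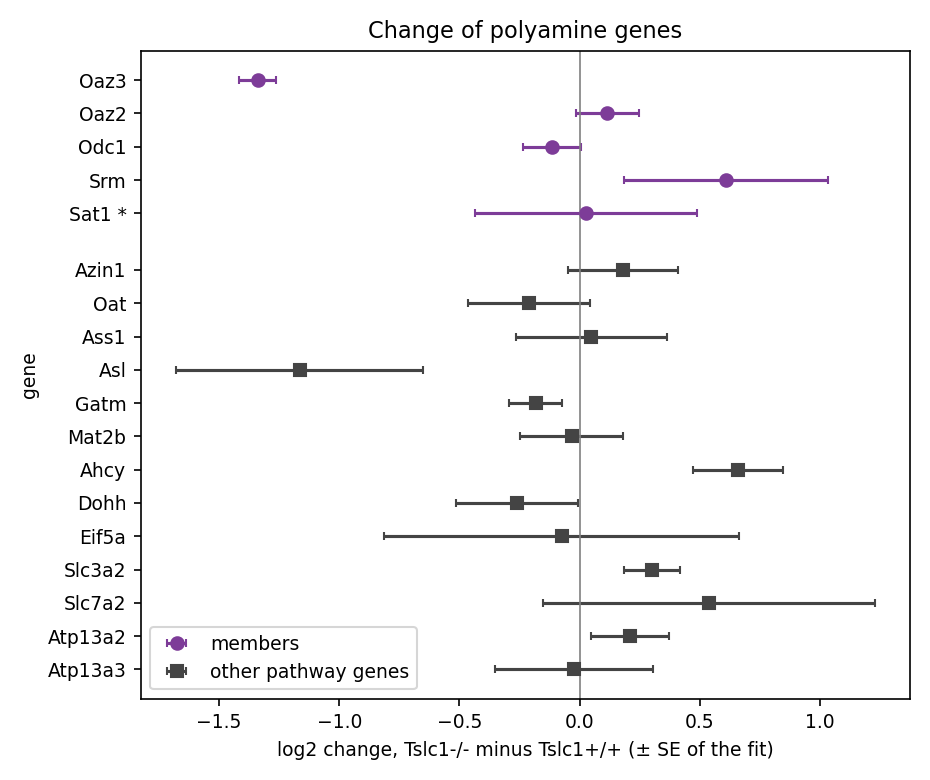
Log2 change between Tslc1-/- and Tslc1+/+ arrays (horizontal axis) with the standard error of the fit, for the 5 members (circles) and the 13 tested genes of the wider pathway (squares). Oaz3 stands at -1.34, while Oaz2 and Odc1 stand at 0.12 and -0.11. The asterisk marks Sat1, which was below the signal filter and was fitted with all probe sets.

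Markers of testis cell types are given beside the fall of Oaz3, since Oaz3 is a haploid germ cell transcript. Of 13 tested elongating spermatid genes other than Oaz3, 5 fell, 0 rose and 8 did not pass, where 0.840% of all tested probe sets were called lower and 0.238% higher. The median log2 change of the 13 was -0.39, against 0.02 over all tested probe sets. Their summed signal was 449632 and 419997 in Tslc1-/- testis, against 585224 and 590188 in Tslc1+/+ testis. Odf1, a protein of the outer dense fibres of the sperm tail, read 49566.2 and 46800.8 in Tslc1-/-, against 83126.4 and 90836.4 in Tslc1+/+, giving -0.85 on the log2 scale (adjusted p = 3.00e-04 by limma). The changes of the 13 genes ran from -0.90 to 0.18. The upper end was Prm2, on a dim probe set that read 396.3 and 192.9 in Tslc1-/-, against 364.9 and 152.5 in Tslc1+/+ (SE 0.59). Of the 13, 10 had a change below 0. Besides Prm2, Haspin and Actl7b were above 0, on brighter probe sets. Haspin, at 0.13, read 4685.6 and 5359.3 in Tslc1-/-, against 4577.9 and 4603.6 in Tslc1+/+, without overlap (adjusted p = 0.792 by limma). Actl7b was at 0.05 with overlap. Of the 13, 0 had a larger fall than Oaz3, which says little because Oaz3 was picked for its fall in this contrast. Oaz3 was then set against the median log2 signal of these genes on the same array, a comparison made after the values were seen. Centred on the Tslc1+/+ mean, the difference was -0.87 and -0.81 on the Tslc1-/- arrays, against 0.03 and -0.03 on the Tslc1+/+ arrays. That median is the level of a single probe set: Tnp1 on both Tslc1-/- arrays and Tslc1+/+ replicate 1, but Prm3 on Tslc1+/+ replicate 2. It mixes levels of different probe sets and does not follow the median change of -0.39. The part of these cells in the fall of Oaz3 was not tested. With quantile normalization the list median was -0.20 and Oaz3 was at -1.23. Without Tslc1+/+ replicate 2, 3 of the 13 fell.

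Round spermatid genes were likewise lower in part: of 8 tested, 4 fell, 0 rose and 4 did not pass, against the same 0.840% called lower and 0.238% higher over all tested probe sets, with a median of -0.41. Their summed signal was 128773 and 132513 in Tslc1-/- testis, against 192076 and 198320 in Tslc1+/+ testis. Gsg1, a germ cell membrane protein gene, was at -0.74 on the log2 scale (adjusted p = 5.16e-04 by limma). Leaving out Tslc1-/- replicate 1, Tslc1-/- replicate 2 or Tslc1+/+ replicate 1 left 2 that fell, and leaving out Tslc1+/+ replicate 2 left 1. Of 7 tested meiotic spermatocyte genes 1 fell, Pgk2, a germ cell glycolytic kinase, by 0.78 in log2 units (adjusted p = 0.00495 by limma). Pgk2 did not pass without Tslc1-/- replicate 1, Tslc1+/+ replicate 1 or Tslc1+/+ replicate 2 (adjusted p = 0.0529 to 0.0774 by limma). The meiotic list had a median of 0.01 and a summed signal of 95639 and 87535 in Tslc1-/- testis, against 92328 and 96275 in Tslc1+/+ testis.

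The markers of the remaining cells gave 0 calls: 5 spermatogonial, 9 Sertoli, 8 Leydig, 6 macrophage and 2 erythrocyte genes were tested, with median log2 changes of 0.26, 0.10, 0.03, 0.08 and 0.11. The genes with the smallest p in each of these lists were Dazl at -0.36, Rhox5 at 0.51, Cyp17a1 at -0.58, Laptm5 at 0.90 and Hba-a1 at 0.75 (adjusted p = 0.244, 0.522, 0.127, 0.395 and 0.144 by limma). A dimmer tested probe set of Dazl had the other sign, at 0.25 with overlap. Summed signals overlapped between genotypes for the Sertoli and macrophage lists. The spermatogonial sums were 8350 and 8639 in Tslc1-/- against 8988 and 9477 in Tslc1+/+, the Leydig sums 13256 and 14891 in Tslc1-/- against 15525 and 15654 in Tslc1+/+, and the erythrocyte sums 2491 and 2352 in Tslc1-/- against 1864 and 2173 in Tslc1+/+. These sums did not overlap, and their part in the fall of Oaz3 was not tested. A sum follows its brightest probe sets. The spermatogonial sum was lower in Tslc1-/- with Dazl, while 1 of the 5 spermatogonial genes had a change below 0. Stra8, at 1.53, had the largest change of that list. It read 359.3 and 531 in Tslc1-/- against 71.7 and 182.9 in Tslc1+/+ (adjusted p = 0.407 by limma). Of the 8 Leydig genes, 4 had a change below 0. Cyp17a1 was lower without overlap, while Hsd3b6, at 1.07, was higher without overlap (adjusted p = 0.173 by limma). The 2 erythrocyte genes went opposite ways: Alas2, at -0.53, read 627.4 and 736.8 in Tslc1-/- against 966.2 and 1036.9 in Tslc1+/+ (adjusted p = 0.475 by limma).

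**Figure D3:**
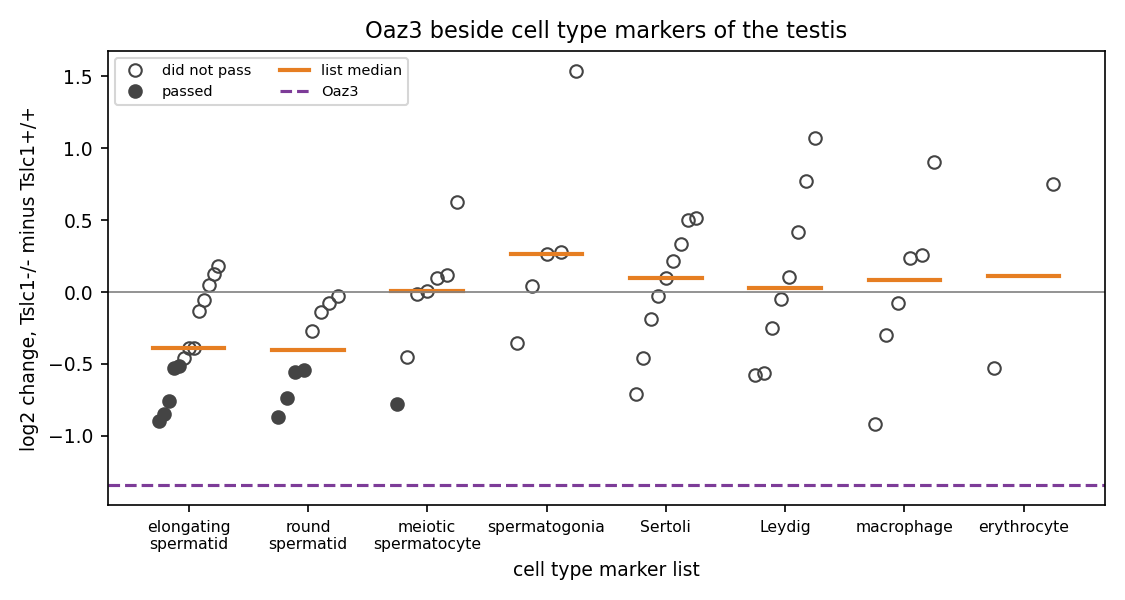
Log2 change of each tested marker gene (points) by cell type list, with filled points for genes that passed (limma, adjusted p under 0.05), bars for list medians and a dashed line for Oaz3 at -1.34. The elongating and round spermatid lists have medians of -0.39 and -0.41. No marker lies below the line of Oaz3, which was picked for its fall in this contrast.

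The genes whose pattern over the 4 arrays was most like that of Oaz3 were found by the root mean square distance between log2 values, each probe set being centred on its own Tslc1+/+ mean. Dhrsx, a short-chain dehydrogenase gene, was the nearest, at a distance of 0.03. It read 4420.4 and 4597 in Tslc1-/- testis, against 11320.7 and 12199.1 in Tslc1+/+ testis. Ppp2r2b, a regulatory subunit of protein phosphatase PP2A, followed at a distance of 0.12, with 6482.6 and 5786 in Tslc1-/- against 14305.2 and 14411.5 in Tslc1+/+. Both were thus lower on both Tslc1-/- arrays by an amount close to that of Oaz3.

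The next were Slc30a5, a zinc transporter gene, Clasrp, a splicing-related gene, and Rab8b, a small GTPase of vesicle traffic, at distances of 0.13 each. Slc30a5 read 209.2 and 253.6 in Tslc1-/- against 545.3 and 631 in Tslc1+/+, Clasrp 444 and 415.9 in Tslc1-/- against 1026.5 and 1033.9 in Tslc1+/+, and Rab8b 244 and 234.1 in Tslc1-/- against 768.4 and 787.3 in Tslc1+/+. These 3 were dimmer, and adding 50 to each signal pulls their log2 values together more. All 5 were picked by this contrast, so no test is given for them, and with 4 arrays in 2 genotypes a close profile mostly means a change of like size.

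**Figure D4:**
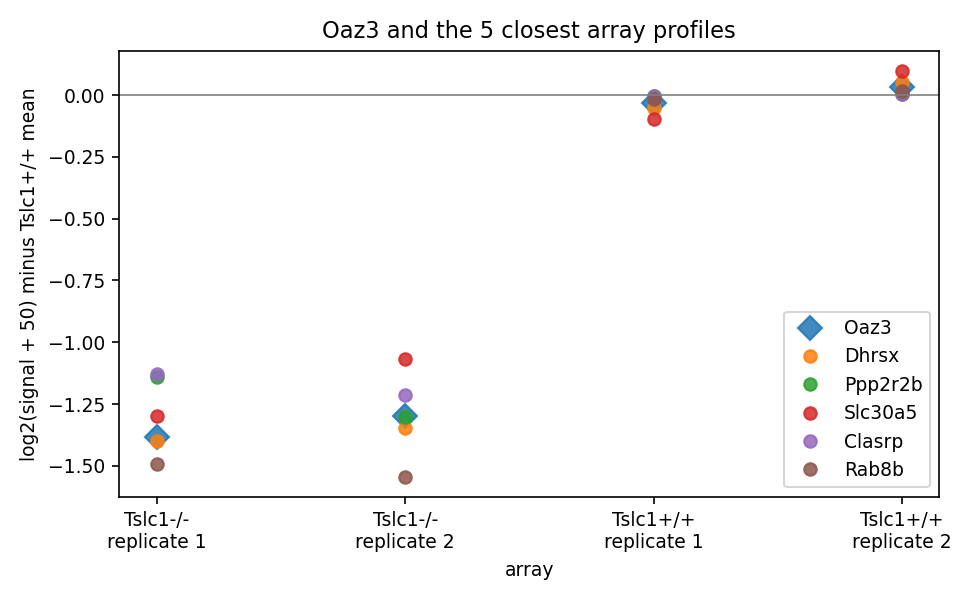
Log2 signal of Oaz3 (diamond) and of the 5 genes with the closest profile (circles) on each array, centred on the Tslc1+/+ mean of each probe set. Oaz3 stands at -1.38 and -1.30 on the Tslc1-/- arrays, against -0.03 and 0.03 on the Tslc1+/+ arrays, with Dhrsx beside it on all 4.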

How the data were processed

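The authors deposited 1 intensity per probe set and array on a linear scale. Per the labels' series design text, they labelled 3 micrograms of testis RNA through an oligo(dT) primer, hybridised it to Mouse Genome U74A version 2 arrays, computed signals with Microarray Suite 5.0 (named MAS5 by the submitters' processing notes), with global scaling to a target of 1000. Such scaling hides a change in total RNA per testis, and oligo(dT) priming favours the 3' ends of transcripts.

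Gene names came from the platform annotation, and symbols were updated through Entrez identifiers in RefSeq genes of GRCm38.p6. Of 12488 probe sets, 66 were controls, 10833 had 1 gene (10817 matched by identifier), 396 several and 1193 none. The 7975 with a mean signal of at least 200 were tested as log2(signal + 50) with limma 3.58.1 in R 4.3.3 (lmFit and trended eBayes). The contrast was Tslc1-/- minus Tslc1+/+, tested two-sided at a Benjamini-Hochberg adjusted p of 0.05. An exact permutation test of 2 against 2 arrays cannot go below p = 0.333. The fit was also run on 10 simulated tables with 200 changed probe sets each. It called 8% of changes of 0.5 in log2 units, 30.4% of those of 1, 71.8% of those of 2 and 96.4% of those of 4. Of its calls, 5.75% were false. The shares called average over probe sets of all brightness, while the SE in the data was 0.12 for Odc1 and 0.43 for Srm. They are thus not the share for any single gene. A gene that was not called may thus still have changed. The simulated spread came from the trended fit itself, so the run cannot check the trend. The number of arrays limits the precision.

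The members and lists were chosen with earlier results of these data known. Named genes were the members, the gene with the smallest p of each pathway and marker list, represented by its brightest tested probe set, and the 5 profiles nearest to Oaz3. Alternatives were the pseudocount, filter, normalization, trend, replicate block, suffix-free probe sets and each array left out. The replicate numbers are not stated to pair the arrays, and deviations of same-numbered arrays correlated with r = -0.00119.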

Additional observations from a re-analysis of the deposited data

How the results depend on the processing

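With quantile normalization Oaz3 was at -1.23, the difference between the changes of Oaz3 and Oaz2 at -1.35 and that of Oaz3 and Odc1 at -1.12, each a move larger than the SD within a genotype; the cause was not tested. With each array left out, Oaz3 ran from -1.38 to -1.30, the difference to Oaz2 from -1.51 to -1.40 and the difference to Odc1 from -1.26 to -1.19. Oaz2 kept a change above 0 (0.03 to 0.20) and Odc1 one below 0 (-0.17 to -0.06) under all 13 alternatives.

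Of all tested probe sets, limma called 86, but 0 without the intensity trend (there 638 had an unadjusted p under 0.05; with the trend, 799), so Oaz3 was not called there. With each array left out it called 37 to 43. With the replicate number as a block it called 239, a pairing that the labels do not state. With all probe sets tested it called 58. Elongating spermatid genes called lower numbered 3 with all probe sets tested, 8 with the replicate block and 0 without the trend, against 5; round spermatid genes numbered 0 without the trend, against 4. With the replicate block Cyp17a1 of the Leydig list and Hba-a1 of the erythrocyte list also passed (adjusted p = 0.00879 and 0.0387 by limma). None of the other polyamine pathway genes was called under any of the 13 alternatives. Dim probe sets limit what can be seen of Srm, Sms and Sat1.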

Other observations

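Of the 20 wider pathway genes with a probe set, 7 were below the signal filter. Among them, chosen after their values were seen, Slc22a2, an organic cation transporter gene, read 75.4 and 36.6 in Tslc1-/- testis, against 168 and 302.9 in Tslc1+/+ testis, a log2 difference of -1.41 (SE 0.57) in the fit of all probe sets. Slc7a1, a cationic amino acid transporter gene that imports arginine and ornithine, read 28 and 28.5 in Tslc1-/- testis, against 71.6 and 58.8 in Tslc1+/+ testis. Nqo1, a quinone reductase gene, went the other way on 94350_f_at, with 121.8 and 56.5 in Tslc1-/- testis, against 49 and 18.9 in Tslc1+/+ testis, while the genotypes overlapped on its other probe set. None of these changes passed in the fit of all probe sets. The adjusted p by limma was 0.540 for Slc22a2, 0.751 for Slc7a1 and 0.742 for Nqo1 on 94350_f_at. For the remaining genes below the filter, Arg1, Arg2, Mat1a and Dhps, the genotypes overlapped. Of the tested, brighter probe sets, 18.5% were lower and 21.5% higher in Tslc1-/- without overlap. The share among dim probe sets was not counted.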
